A study of Rattus norvegicus with 8 samples.

Results

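The circadian clock genes measured here were 10 genes of the molecular day-night oscillator, namely Arntl (the symbol in the array files; Bmal1 in current RefSeq), Clock, Npas2, Per1, Per2, Per3, Cry1, Cry2, Nr1d1 and Dbp. They were taken by gene symbol from the non-control spots of the arrays, and all 10 were present, on 17 probes and 26 spots, among 17361 genes tested. The tissue was the pituitary of Wistar rat dams in lactation, taken on day 7 after birth. Samples came from 4 dams exposed to TCDD, the dioxin that activates the aryl hydrocarbon receptor (AhR), and from 4 control dams, with 1 Agilent array of a single colour for each. The labels used here state neither the time of day of collection, nor the TCDD dose, nor the day of exposure.

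The clock is a feedback loop of transcription. ARNTL pairs with CLOCK or its relative NPAS2, and the pair binds E-box sequences and switches on the Per and Cry genes, Nr1d1 and Dbp. PER and CRY proteins then inhibit the pair, and NR1D1 (REV-ERB alpha) represses Arntl, Npas2 and other genes through ROR elements (ROREs), at which RORA activates. DBP, with its relatives TEF and HLF, activates genes through D-boxes. In many tissues of mammals Arntl and Npas2 transcripts therefore peak at about the time when those of Dbp, Nr1d1 and the Per genes are lowest. Clock transcript varies little. The balance of the opposed arms was used here to describe each array, and that it gives the phase of a sample was not tested. ARNTL, CLOCK and NPAS2 belong to the same protein family (bHLH-PAS) as AhR.

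The promoters below show what the elements of the loop look like in the clock genes themselves. Ciart and Tef were added after their values were seen. Each runs 5′ to 3′ from 250 bases before to 50 bases after the RefSeq gene start in the GRCr8 build. Capitals mark E-boxes (CACGTG), the variant E-box (CACGTT), D-boxes (TTATGTAA or TTATGCAA) and the RORE core (AGGTCA), all searched on both strands with overlaps allowed. The windows are Nr1d1 on the minus strand at chr10:84229405-84229704, Ciart on the minus strand at chr2:186112197-186112496, Tef on the plus strand at chr7:115206577-115206876, Per2 on the minus strand at chr9:99496944-99497243 and Arntl on the plus strand at chr1:176766078-176766377.
Nr1d1: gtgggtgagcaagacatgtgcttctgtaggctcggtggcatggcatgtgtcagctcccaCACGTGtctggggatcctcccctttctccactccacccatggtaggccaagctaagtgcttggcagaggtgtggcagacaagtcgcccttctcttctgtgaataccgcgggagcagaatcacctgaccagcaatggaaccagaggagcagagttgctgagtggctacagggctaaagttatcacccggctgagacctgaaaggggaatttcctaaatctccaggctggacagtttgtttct
Ciart: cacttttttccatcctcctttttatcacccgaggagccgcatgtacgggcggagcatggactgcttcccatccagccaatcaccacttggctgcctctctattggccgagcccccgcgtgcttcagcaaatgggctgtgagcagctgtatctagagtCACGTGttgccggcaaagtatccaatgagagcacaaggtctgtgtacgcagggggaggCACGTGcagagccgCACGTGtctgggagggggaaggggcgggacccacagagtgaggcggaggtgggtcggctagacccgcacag
Tef: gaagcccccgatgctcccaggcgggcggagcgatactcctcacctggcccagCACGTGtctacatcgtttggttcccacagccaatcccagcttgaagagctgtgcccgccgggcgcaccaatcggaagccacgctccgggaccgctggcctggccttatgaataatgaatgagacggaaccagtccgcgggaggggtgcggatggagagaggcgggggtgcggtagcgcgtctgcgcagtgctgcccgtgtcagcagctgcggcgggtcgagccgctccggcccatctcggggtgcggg
Per2: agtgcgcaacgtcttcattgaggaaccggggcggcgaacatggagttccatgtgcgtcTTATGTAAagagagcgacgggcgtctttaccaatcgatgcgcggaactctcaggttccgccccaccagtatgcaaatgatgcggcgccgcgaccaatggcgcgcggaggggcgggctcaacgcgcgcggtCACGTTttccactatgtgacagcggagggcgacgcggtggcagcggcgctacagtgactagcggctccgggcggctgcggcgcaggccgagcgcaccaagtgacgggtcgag
Arntl: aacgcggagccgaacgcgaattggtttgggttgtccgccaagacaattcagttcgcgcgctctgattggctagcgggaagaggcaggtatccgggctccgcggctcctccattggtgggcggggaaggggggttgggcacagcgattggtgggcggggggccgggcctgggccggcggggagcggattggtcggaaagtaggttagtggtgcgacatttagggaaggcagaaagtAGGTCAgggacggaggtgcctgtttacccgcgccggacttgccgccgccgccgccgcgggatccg
The window of Nr1d1 held 1 E-box and that of Tef, a relative of Dbp, held 1. Ciart, which encodes a repressor of the ARNTL and CLOCK pair, had 3. Per2 had the variant E-box and a D-box, and Arntl had a RORE core. In all, 9 of the 10 clock genes had an entry, with none for Cry1. An E-box was found in 1 of these 9 and in 6.42% of 33469 promoters of that length, the variant E-box in 2 (Per2 and Cry2) and in 4.83%, a D-box in 1 (Per2) and in 1.73%, and the RORE core in 1 (Arntl) and in 16.2%. The core of the AhR response element, GCGTG, which was not capitalised, was found in 3 of the 9 (Npas2, Per3 and Dbp) and in 29.7% of promoters. The same elements stood in windows that are not shown, the E-box in Bhlhe40 and Bhlhe41, the variant E-box in Cry2 and Bmal2 and the RORE core in Nr1d2 and Usp2. Of the other clock genes 14 had an entry, with an E-box in 4, the variant E-box in 1, a D-box in 0 and the RORE core in 2. GCGTG was found in 8 of these 14 (Rorb, Bmal2, Bhlhe41, Tef, Ciart, Csnk1e, Btrc and Noct), and that count was not tested. These matches describe the letters of the windows only.

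Values are log2 of the processed signal relative to the 75th percentile of the same array, so 0 is the level that 75% of spots stay under. The 75th percentile itself lay between 765 and 932 intensity units and the share of spots flagged well above background was 71.1% to 73.9%. All 10 clock genes were well above background on all 8 arrays by the probe used, and no spot of theirs was saturated. All 8 listed marker genes of the anterior pituitary, Prl, Gh1, Pomc, Cga, Lhb, Fshb, Tshb and Pou1f1, were well above background on all 8 arrays. Of these 3 were higher and 5 lower in TCDD samples (median log2 change -0.0036), and none passed over all genes (limma). At an unadjusted p under 0.05 there were 2 of the 8, as were 10.7% of all genes. They were Fshb, the FSH beta subunit, at -0.71 (SE 0.25) and Pou1f1, a pituitary transcription factor, at 0.35 (SE 0.14). The TCDD arrays lay on slide 2 and the control arrays on slide 1, so that a slide or scan effect and a group effect cannot be told apart. In whole tissue, fewer cells of a type and less RNA per cell cannot be told apart either, and the labels do not say whether samples were handled apart, so p-values measure only the spread between these samples.

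No clock gene passed the test between TCDD and control dams. Of the 10 genes 0 passed an adjusted p of 0.05 (limma, Benjamini-Hochberg over all genes), where 14 of 17361 genes (0.0806%) did, 0.0576% higher and 0.023% lower, and 0 had an unadjusted p under 0.05, where 10.7% of all genes did. The 4 TCDD values overlapped the 4 control values for all 10 by the probe used, while the groups did not overlap for 7.1% of all genes, 5.19% higher and 1.91% lower. The median log2 change of the 10 was 0.05, with 7 higher and 3 lower, and that of all genes was 0.02.

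**Figure D1:**
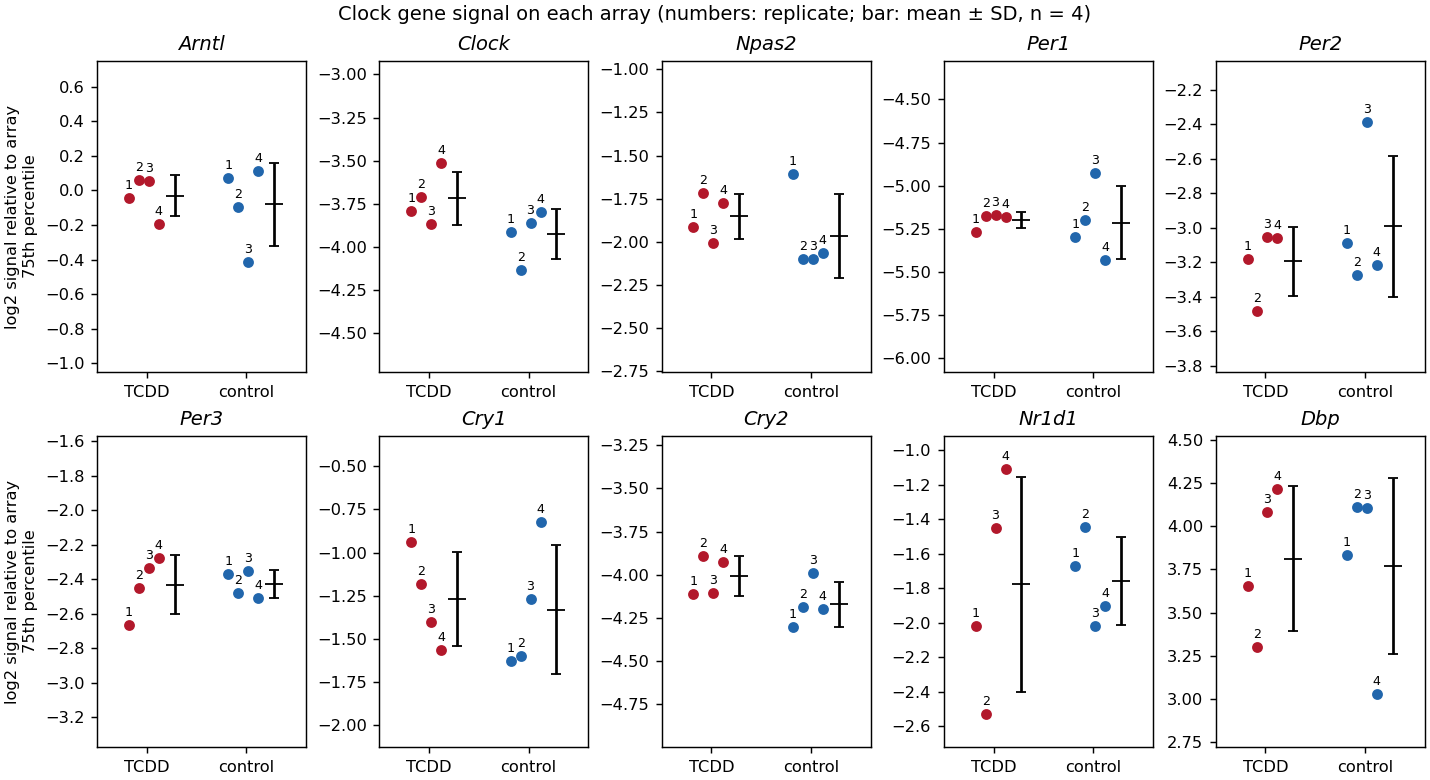
Log2 signal of each clock gene relative to the 75th percentile of its array, on the 4 TCDD arrays (left, red) and the 4 control arrays (right, blue), numbered by replicate, with mean ± SD (n = 4); every panel spans the same number of log2 units. The groups overlap in every panel, and the spread is widest for Nr1d1 and Dbp.

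In the activator arm, Arntl, the partner that CLOCK and NPAS2 share, was at -0.05, 0.06, 0.06 and -0.19 in TCDD replicates 1 to 4, against 0.07, -0.09, -0.41 and 0.11 in control replicates 1 to 4. Control replicate 3 was the lowest of the 8 arrays, and the groups overlapped. The log2 change was 0.05 (SE 0.12, 95% confidence interval -0.24 to 0.34, limma, adjusted p = 0.93). Clock, which encodes the histone acetyltransferase of the pair, was at -3.79, -3.71, -3.86 and -3.51 in TCDD replicates, against -3.91, -4.13, -3.86 and -3.80 in control replicates. TCDD replicate 4 was the highest and control replicate 2 the lowest. The change of 0.21 (SE 0.10, interval -0.03 to 0.44) did not pass (limma, adjusted p = 0.53; exact two-sided permutation p = 0.086 over 70 assignments). Another Clock probe, also well above background on all 8 arrays, gave a change of 0.04 (SE 0.15, limma over all probes, adjusted p = 0.95). Its r with the probe used was 0.49 over the 8 arrays, so the change of 0.21 rests on 1 probe.

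Npas2, the relative of Clock, gave different pictures by its probes. The probe used was at -1.91, -1.72, -2.01 and -1.78 in TCDD replicates, against -1.60, -2.10, -2.10 and -2.06 in control replicates, where replicate 1 stood alone at the top. Its log2 change was 0.11 (SE 0.13, interval -0.18 to 0.41, limma, adjusted p = 0.82). The other probe was at -3.28, -3.00, -3.19 and -3.13 in TCDD replicates, against -3.46, -3.56, -3.53 and -3.36 in control replicates. There all 4 TCDD values lay above all 4 controls, which held for 5.06% of the 19950 probes when each was tested on its own, a fit chosen after the data were seen. The log2 change of that probe was 0.33 (SE 0.08), not past the threshold over all probes (limma, adjusted p = 0.28; 9 probes or 0.0451% passed, and 7.58% were higher at an unadjusted p under 0.05), with the smallest exact permutation p that 4 against 4 arrays allow (0.029). The groups stayed apart on that probe with quantile normalization, median centring, normexp and the deposited table, at changes of 0.20 to 0.29. Both probes lie on the plus strand, and their sequences are shown because their readings differ.
Npas2 probe used, chr9:38433884-38433943 in rn4: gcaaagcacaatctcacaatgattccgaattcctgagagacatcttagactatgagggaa
Npas2 other probe, chr9:38417496-38417555 in rn4: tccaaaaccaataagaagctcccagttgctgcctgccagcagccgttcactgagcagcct
Over the 8 arrays the correlation between these probes was 0.47, given as a description, and the exons they fall in were not determined here.

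The period genes, whose proteins inhibit the activators, did not pass either. Per1 was at -5.27, -5.17, -5.17 and -5.18 in TCDD replicates, against -5.30, -5.20, -4.93 and -5.43 in control replicates. The TCDD values were tightly grouped and lay within the control range. Its log2 change was 0.02 (SE 0.11), with a sign that turned with quantile normalization, median centring and the deposited table. Per2 was at -3.18, -3.48, -3.05 and -3.06 in TCDD replicates, against -3.09, -3.27, -2.39 and -3.21 in control replicates. Control replicate 3 stood highest and TCDD replicate 2 lowest, and the 2 arrays differed 2.13-fold. The change of -0.20 (SE 0.20, interval -0.67 to 0.26) did not pass (limma, adjusted p = 0.79), and without control replicate 3 it was close to 0, at -0.0007. Control replicate 3 was also the highest array for Per1 and, among all arrays, for the mean of 8 immediate early genes such as Fos and Egr1, at 0.80 relative to the 8 arrays. The next highest array for that mean was TCDD replicate 2 at 0.53, where Per2 was lowest, and the part of either in the Per values was not tested. Per3 was at -2.66, -2.45, -2.33 and -2.28 in TCDD replicates, against -2.37, -2.48, -2.35 and -2.51 in control replicates. The means differed by -0.0041 on the log2 scale (SE 0.09). One other Per3 probe followed the probe used (r = 0.80 over 8 arrays) and another did not (r = 0.0020). The probe that followed was well above background on only 3 TCDD and 3 control arrays, the one that did not on all 8.

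Of the cryptochromes, which repress with the PER proteins, Cry1 varied more than Cry2. Cry1 was at -0.94, -1.18, -1.40 and -1.56 in TCDD replicates, against -1.63, -1.60, -1.27 and -0.82 in control replicates. Control replicate 4 and TCDD replicate 1 were the highest, 1 in each group. The log2 change was 0.06 (SE 0.20, interval -0.41 to 0.53, limma, adjusted p = 0.95). Cry2 was at -4.11, -3.89, -4.11 and -3.92 in TCDD replicates, against -4.30, -4.19, -3.99 and -4.20 in control replicates. All 4 TCDD values lay above 3 of the controls, and control replicate 3 lay inside the TCDD range. The change was 0.16 (SE 0.09, interval -0.04 to 0.36, limma, adjusted p = 0.58).

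Nr1d1 and Dbp, the repressor of Arntl and the D-box activator, had the widest spread between dams of 1 group. Nr1d1 was at -2.02, -2.53, -1.45 and -1.11 in TCDD replicates, against -1.67, -1.44, -2.02 and -1.90 in control replicates. TCDD replicate 2 was the lowest and TCDD replicate 4 the highest of all arrays, 2.67-fold apart, and the controls lay between them. The log2 change was -0.02 (SE 0.29, interval -0.69 to 0.66, limma, adjusted p = 0.99). Dbp was at 3.66, 3.30, 4.08 and 4.21 in TCDD replicates, against 3.83, 4.11, 4.10 and 3.03 in control replicates. Control replicate 4 and TCDD replicate 2 were low, and TCDD replicate 1 was the next lowest. The highest array was 2.27-fold above the lowest, while the log2 change between groups was 0.04 (SE 0.29, interval -0.62 to 0.71, limma, adjusted p = 0.98). All 3 Dbp probes had TCDD replicate 4 highest and control replicate 4 and TCDD replicate 2 lowest, with correlations of 0.98 or more over the 8 arrays and a highest-to-lowest ratio of 2.17- to 2.28-fold. The SD within groups was 0.48 for Nr1d1 and 0.47 for Dbp, at percentiles 93.4 and 93.1 of all genes tested. For Cry1 and Per2 it was 0.33 and 0.32, at percentiles 85.0 and 84.4, and for the other 6 genes it lay between percentiles 40.1 and 65.0. The intervals show what 4 arrays a group could bound. On the log2 scale, changes from -0.62 to 0.71 for Dbp and from -0.69 to 0.66 for Nr1d1 lie inside the interval. Differences within these ranges were not excluded.

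**Figure D2:**
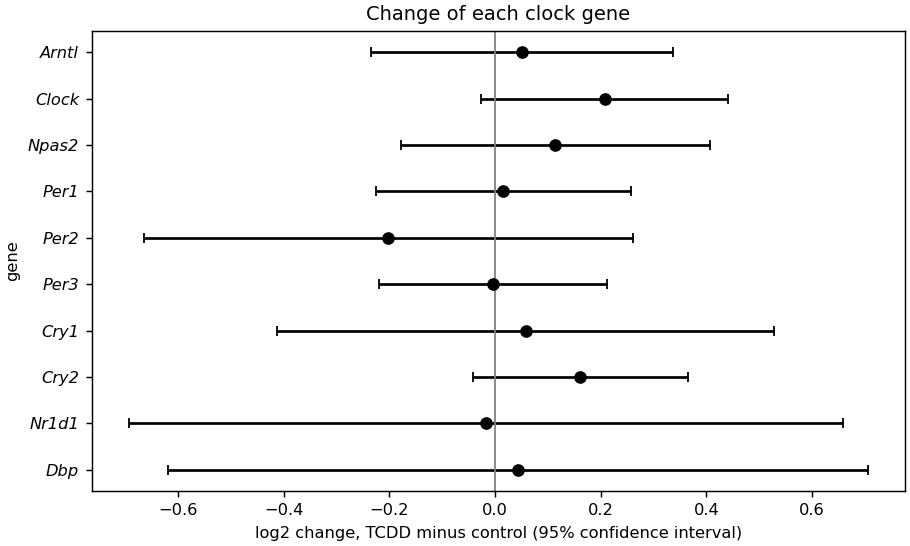
Log2 change of each clock gene, TCDD minus control, with its 95% confidence interval from limma (4 arrays a group). All 10 intervals include 0, and those of Nr1d1 and Dbp are the widest of the 10, at -0.69 to 0.66 and -0.62 to 0.71.

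The opposed arms were set against each other on each array. The mean of Arntl, Clock and Npas2, each relative to its mean over the 8 arrays, minus the same mean of Per1, Per2, Per3, Nr1d1 and Dbp is called the arm balance. A high value means more activator transcript and less target transcript than on the average array. The arm balance was 0.17, 0.47, -0.16 and -0.16 in TCDD replicates 1 to 4, against 0.09, -0.26, -0.42 and 0.28 in control replicates 1 to 4. Both signs occurred in both groups, and TCDD replicate 2 and control replicate 3 were the ends of the range, 0.89 apart. The group means were 0.08 ± 0.30 in TCDD and -0.08 ± 0.32 in control samples (SD, n = 4 each), a difference of 0.16 that is smaller than the SD within either group. Without TCDD replicate 2 it was 0.03 and without control replicate 3 it was 0.04. It is given with no test, since the score was built from genes chosen with earlier results known. The target arm varied more than the activator arm. It ranged from -0.33 to 0.26 over the TCDD arrays and from -0.26 to 0.23 over the control arrays, whereas the activator arm ranged from -0.01 to 0.14 and from -0.19 to 0.11. With Arntl and Npas2 against Nr1d1 and Dbp alone, the balance was 0.20, 0.78, -0.30 and -0.54 in TCDD replicates, against 0.15, -0.44, -0.30 and 0.46 in control replicates. Every array kept its sign, while TCDD replicate 4 took the low end in place of control replicate 3.

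**Figure D3:**
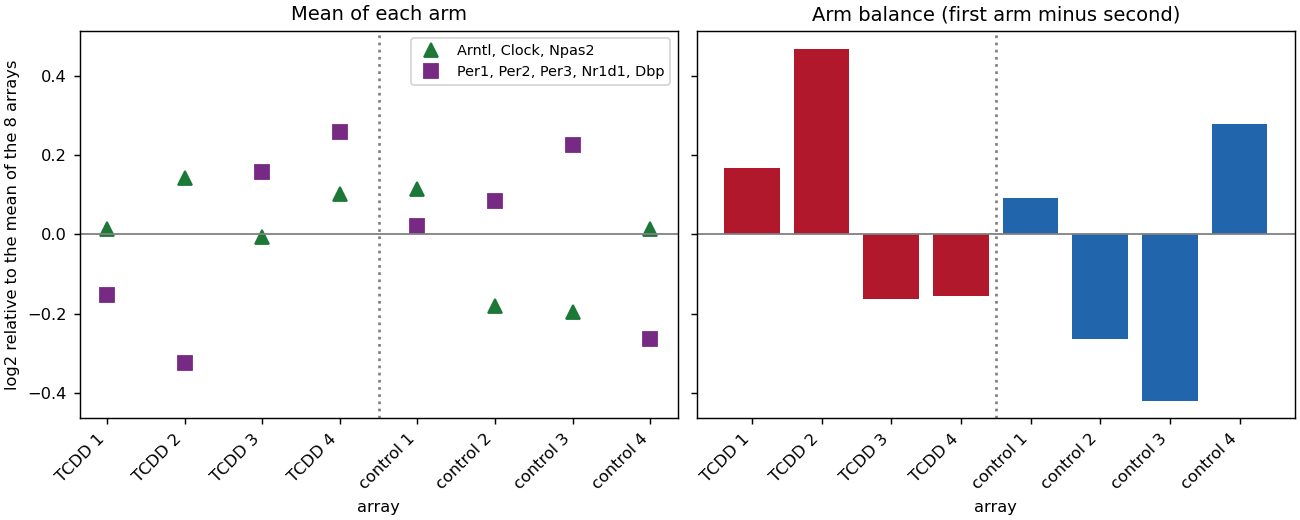
Left, the mean log2 signal of the activator arm (triangles) and of the target arm (squares) on each array relative to the mean of the 8 arrays. Right, their difference, the arm balance, for TCDD (red) and control (blue) arrays; it is positive on TCDD replicates 1 and 2 and on control replicates 1 and 4, and negative on the others.

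Correlations over the 8 arrays were computed for all 45 pairs of the 10 genes. Of the 15 pairs of opposed arms 13 were negative (median r = -0.14), and of the 10 pairs within the target arm 9 were positive (median r = 0.49). Some of the 13 were close to 0, such as Clock against Per1 (r = -0.0064). Within the activator arm 2 of 3 pairs were positive (median r = 0.34), and Arntl and Clock had r = -0.07. Of all 45 pairs 23 were negative and 22 positive. No pair passed after adjustment over the 45 (exact permutation test, 0 with an adjusted p under 0.05, 3 with an unadjusted p under 0.05). Arntl ran against Per1 (Pearson r = -0.82, exact permutation p = 0.015, adjusted p = 0.46; Spearman rho = -0.64, exact permutation p = 0.096), and r was -0.43 without the 2 arrays farthest from the median of Arntl. Arntl also ran against Per2 (r = -0.79, exact permutation p = 0.041, adjusted p = 0.46; rho = -0.48, exact permutation p = 0.24). That relation rests on TCDD replicate 4 and control replicate 3, without which r was 0.09. Arntl and Dbp gave r = -0.62 (exact permutation p = 0.091, adjusted p = 0.46) and rho = -0.81 (exact permutation p = 0.022, adjusted p = 0.52), and r = -0.59 without the 2 farthest arrays. Cry1, which is regulated by ROREs as well as E-boxes and peaks later than the Per genes in other tissues, ran against Dbp (r = -0.77, exact permutation p = 0.028, adjusted p = 0.46; rho = -0.69, exact permutation p = 0.069), with r = -0.55 without the 2 arrays farthest from the median of Cry1. Nr1d1 and Dbp varied together (r = 0.68, exact permutation p = 0.066, adjusted p = 0.46; rho = 0.67, exact permutation p = 0.083), with r = 0.46 without the 2 farthest arrays. On deviations from the group means these values were -0.84 for Arntl and Per1, -0.80 for Arntl and Per2, -0.64 for Arntl and Dbp, -0.78 for Cry1 and Dbp and 0.68 for Nr1d1 and Dbp. Each slide held 4 arrays, too few for a correlation within it.

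**Figure D4:**
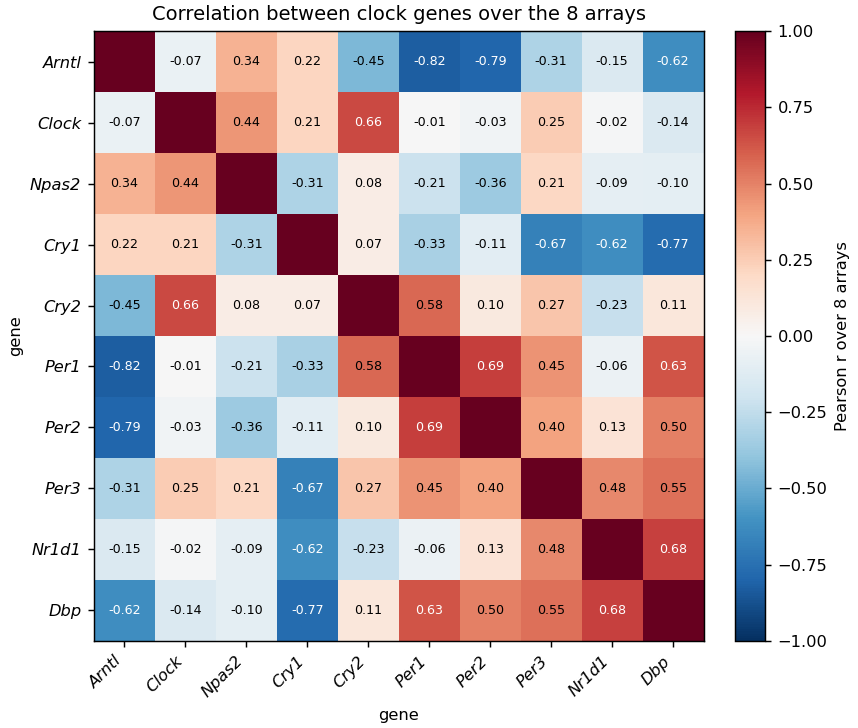
Pearson correlation over the 8 arrays between each pair of clock genes, from -1 (blue) to 1 (red), with the value in each cell. Arntl is negative against Per1, Per2 and Dbp (-0.82, -0.79 and -0.62), and Cry1 is negative against Dbp (-0.77); no pair passed after adjustment over the 45.

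Of 21 other clock genes, 19 were measured, 8 of them higher and 11 lower in TCDD dams, with a median log2 change of -0.01. None passed over all genes (limma), while at an unadjusted p under 0.05 there was 1 higher (7.76% of all genes) and 1 lower (2.95%). The lower one was Noct, which encodes nocturnin, a rhythmic phosphatase that acts on NADP(H) cofactors. It was at -1.12, -0.96, -0.97 and -1.41 in TCDD replicates, against -0.73, -0.58, -0.78 and -0.82 in control replicates. All 4 TCDD values lay below all 4 controls, as for 1.91% of all genes. The log2 change was -0.39 (SE 0.11, limma, adjusted p = 0.31; exact permutation p = 0.029), between -0.44 and -0.29 over 18 other settings, none of which passed. The higher one was Rorb, a nuclear receptor of the ROR family, at -2.16, -2.18, -2.33 and -2.47 in TCDD replicates, against -2.61, -2.46, -2.63 and -2.46 in control replicates. The lowest TCDD value fell inside the control range, and the log2 change was 0.25 (SE 0.09, limma, adjusted p = 0.39). Nr1d2, the relative of Nr1d1, stood at -0.26 (SE 0.14), Ciart at -0.29 (SE 0.49), Bhlhe41, an E-box repressor, at -0.19 (SE 0.26) and Csnk1e, a kinase of PER proteins, at 0.16 (SE 0.09; -0.12 as the mean of its kept probes), none of them past the threshold.

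None of these genes entered the arm balance. Over the 8 arrays 8 of the 19 had a positive r with it and 11 a negative one, with a median absolute r of 0.49, and of 0.32 for the 17351 genes tested other than the 10. The sign held for 12 of the 19 in all 14 other scalings and arrays left out, and turned in at least 1 of them for 7. Tef, the D-box activator related to Dbp, was at 0.85, 0.62, 0.94 and 1.04 in TCDD replicates, against 1.04, 1.10, 1.06 and 0.49 in control replicates. As for Dbp, control replicate 4 and TCDD replicate 2 were lowest and TCDD replicate 1 was next. Ciart was at -5.13, -6.61, -5.09 and -4.71 in TCDD replicates, against -5.04, -4.92, -4.31 and -6.12 in control replicates. It was low on the same arrays, TCDD replicate 2 and control replicate 4, where it was not well above background. Rora, the activator at ROREs, was at -4.15, -4.05, -4.36 and -4.30 in TCDD replicates, against -4.21, -4.46, -4.36 and -4.11 in control replicates. It was highest on those 2 arrays, over a range of 1.33-fold. With the arm balance r was 0.94 for Rora, -0.90 for Ciart, -0.83 for Tef and -0.73 for Hlf (n = 8 arrays, a description). It was 0.94, -0.90, -0.83 and -0.80 on deviations from the group means and 0.97, -0.75, -0.79 and -0.58 without TCDD replicate 2 and control replicate 3. Over the other scalings and with each array left out, r stayed between 0.70 and 0.97 for Rora, the lowest with normexp, between -0.94 and -0.84 for Ciart and between -0.90 and -0.76 for Tef. For Hlf it ranged from -0.82 to -0.50, the weakest without TCDD replicate 2. Nfil3, which represses at D-boxes, had r = 0.59. Other genes with E-boxes or ROREs, or known as clock outputs, had a weaker r or one that rested on 1 array. It was -0.50 for Nr1d2 and 0.02 without TCDD replicate 2, -0.40 for Bhlhe41 and 0.18 without that array, and -0.42 for Bhlhe40. For Usp2, which encodes a rhythmic deubiquitinase, it was -0.16 and turned to 0.43 without control replicate 3, and for Noct it was -0.13.

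Dbp alone was also set against every other gene over the 8 arrays. Of 17360 genes 0 passed after adjustment over all of them (0%), with 12.4% at an unadjusted p under 0.05. Tef had r = 0.95 (exact permutation p = 0.0016, adjusted p = 0.32; rho = 0.90, exact permutation p = 0.0046), which ranked 20 by size. Without the 2 arrays farthest from the median of Dbp it was 0.68. Ciart had r = 0.88 (exact permutation p = 0.0088, adjusted p = 0.32; rho = 0.88) and 0.57 without those arrays, and Rora had r = -0.86 (exact permutation p = 0.0051, adjusted p = 0.32; rho = -0.83) and -0.82 without them.

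**Figure D5:**
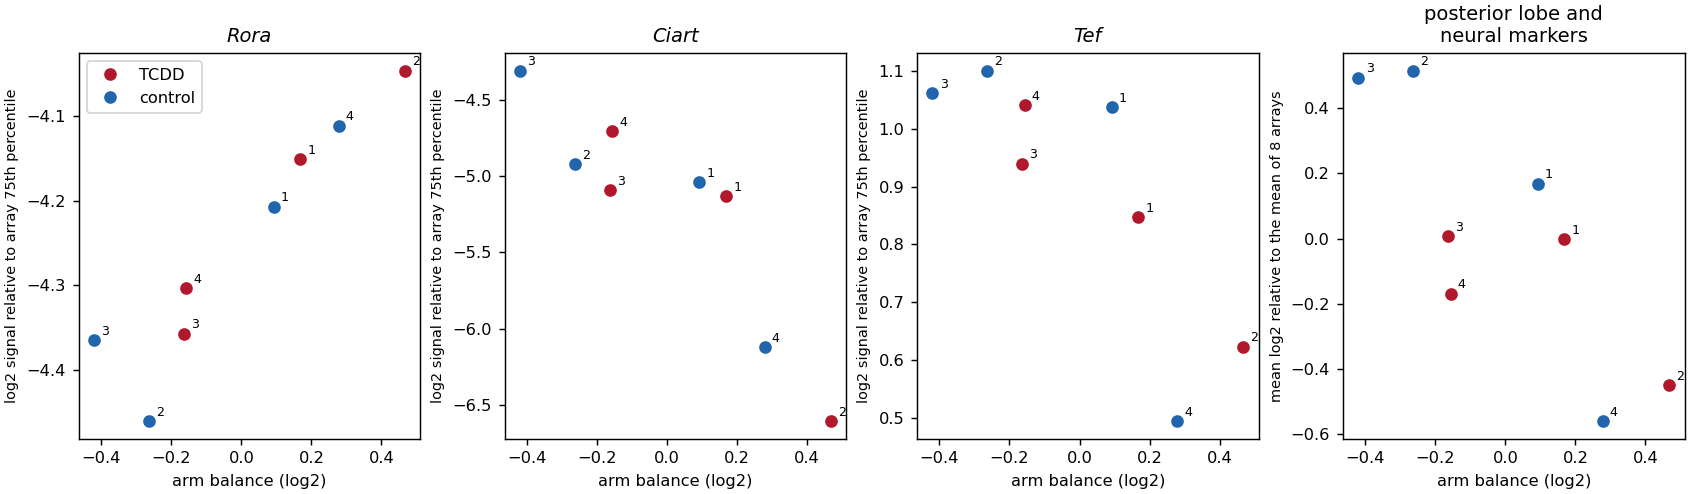
Arm balance of each array (x axis, log2) against the log2 signal of Rora, Ciart and Tef and against the mean of 7 posterior lobe and neural markers, for TCDD (red) and control (blue) arrays numbered by replicate. Rora increases with the balance (r = 0.94), and Ciart (-0.90), Tef (-0.83) and the marker mean (-0.81) decrease.

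Among 11699 genes with a symbol that were well above background on all 8 arrays, Rora was the gene most like the arm balance in the positive direction (r = 0.94, rho = 0.98). After it came Cd93 (0.93), a receptor of endothelial and myeloid cells, Dand5 (0.92), Tm4sf4 (0.92) and Camk4 (0.90), a calmodulin-dependent kinase. In the opposite direction the closest were Il18bp (r = -0.99), which binds interleukin 18, Rasd1 (-0.98), a small G protein induced by glucocorticoids, Avpr1b (-0.95), the vasopressin receptor of corticotrophs, Camk2b (-0.94) and Cpne7 (-0.94). Avpr1b ranged 3.38-fold over the arrays and was lowest on TCDD replicate 2 (-5.36) and control replicate 4 (-4.92). These genes were picked as the extremes of a ranking over 8 arrays, so their r is a description.

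Markers of the posterior lobe moved with the arm balance as well. The mean of 7 measured posterior lobe and neural markers (of 10 listed), relative to the 8 arrays, was -0.0022, -0.45, 0.01 and -0.17 in TCDD replicates, against 0.17, 0.51, 0.49 and -0.56 in control replicates. It was lowest on control replicate 4 and TCDD replicate 2, the arrays with the lowest Dbp. Its r with the arm balance was -0.81 (rho = -0.83, n = 8, a description), -0.79 on deviations from the group means and -0.65 without TCDD replicate 2 and control replicate 3. Of the 7 markers 3 were higher and 4 lower in TCDD samples (median log2 change -0.12), and none passed over all genes. Over the 8 arrays r with the balance was -0.70 for Avp, -0.78 for Oxt and -0.70 for Mbp. It was -0.17 for Snap25, -0.26 for Nefl and -0.34 for Rax. Avp, the vasopressin gene, which had the lowest log2 change of the 7 (-1.41, SE 0.52), was at -0.22, -1.70, -0.69 and -0.95 in TCDD replicates, against 0.72, 0.86, 1.45 and -0.96 in control replicates. Gfap and Mog, the astrocyte and myelin markers, were not well above background on enough arrays to be measured, and Col25a1 was not found under that name. The part of posterior lobe content in the clock values was not tested. The means of 8 anterior pituitary genes (r = 0.25), 6 leukocyte markers (-0.18), 8 stromal and pericyte markers (-0.32) and 6 erythrocyte markers (0.50, and 0.04 without TCDD replicate 2 and control replicate 3) had a smaller r with the balance. The mean of the erythrocyte markers ranged from -0.01 to 0.65 over the TCDD arrays and from -0.68 to 0.24 over the control arrays. All 6 were higher in TCDD samples (median log2 change 0.65), and none passed over all genes. At an unadjusted p under 0.05 (limma) there were 6 higher, as were 7.76% of all genes. The groups did not overlap for 1, Slc4a1 at 1.39 (SE 0.23), as for 5.19% of all genes. The part of blood content in the clock values was not tested.

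The means of the glucocorticoid-responsive and immediate early lists had a Pearson r near 0 with the balance. For single genes of these lists r was not computed, so the means do not show whether some members moved with it. For 10 glucocorticoid-responsive genes, 3 of which were higher and 7 lower (median -0.08), r was -0.02 (rho = -0.33). Without TCDD replicate 2 and control replicate 3 that r was 0.17. Those with the largest absolute changes, Errfi1, Fkbp5 and Zbtb16, stood at -0.33, -0.35 and -0.36, and none passed over all genes. The groups did not overlap for 2 of the 10, with Errfi1 lower in all TCDD samples (1.91% of all genes) and Mt1 higher in all of them, at 0.28 (5.19% of all genes). For 8 immediate early genes r was -0.09 (rho = -0.05). Of 7 AhR target genes 6 were measured, and Cyp1a1, Cyp1a2 and Ahrr passed the filter only through the TCDD arrays, with no control array well above background. For that reason no count, mean or correlation with the balance is given over the list. Nqo1, a detoxifying enzyme measured on all 8 arrays, was at -2.73, -2.68, -2.54 and -1.96 in TCDD replicates, against -3.46, -3.31, -3.46 and -4.03 in control replicates. All 4 TCDD values lay above all 4 controls, as for 5.19% of all genes, and the log2 change was 1.09 (SE 0.21, limma, adjusted p = 0.18). Aldh3a1, an aldehyde dehydrogenase, at 0.75 (SE 0.20), and Cyp1b1, a cytochrome P450, at 0.36 (SE 0.11), had overlapping groups and did not pass.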

How the data were processed

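Per the labels' protocols, pituitary RNA was labelled with Cy3 for 8 single-colour Agilent rat arrays. Groups follow the agent in the labels, 4 TCDD and 4 control. The deposited intensities were made by the authors, per the file headers, with version 10.7.1.1 of Agilent Feature Extraction, background-subtracted and detrended within each array, with probe coordinates in rn4. The deposited value table of linear intensity, with the same median (56.3) in each column, served as an alternative. How it was scaled is unknown.

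Log2 of the processed intensity minus the 75th percentile of each array was used. Outlier spots were left out, spots of a probe averaged, and probes kept if well above background on 4 or more arrays. The kept probe with the highest mean stood for a gene. Probes were named through the RefSeq table of GRCr8 (18006 of 30367 by accession, 2654 by symbol, 559 by older symbol), and sequences are from RefSeq (GRCr8) or the array files. The group test was limma (3.58.1, lmFit and eBayes; R 4.3.3), two-sided, adjusted over 17361 genes. The fit and the ranking by correlation were tested on simulated data. Alternatives were quantile normalization, median centring, normexp (offset 50) with quantile normalization, the deposited table, other filters and probe summaries, kept outliers, an intensity trend, a replicate block and leaving out each array.

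Named were all 10 members, other clock genes past a threshold, with groups apart or among the 6 largest changes, and the 5 genes at each end of the correlation with the arm balance; Tef, Hlf, Nfil3, Bhlhe40, Usp2, Nqo1, Aldh3a1, Cyp1b1, Mt1 and Avp were added after their values were seen. The members and lists were chosen with earlier results of these data known. In the labels same-numbered samples shared only a number.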

Additional observations from a re-analysis of the deposited data

Results flagged for a closer look

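Within the groups of 4 arrays, the highest or lowest array was compared with its nearest neighbour, as the gap divided by the whole range. Over 60 such groups (29 clock genes and the arm balance in TCDD and control samples) 4 passed the 95% limit of Dixon's test, where chance gives about 5% of groups. Per1 was low on TCDD replicate 1 (0.906), at -5.27 among TCDD values that otherwise lay between -5.18 and -5.17. Csnk1e, a kinase of PER proteins, was low on TCDD replicate 2 (0.893), at -4.12 against -3.83 to -3.79 on the other TCDD arrays. Npas2 was high on control replicate 1 (0.922), at -1.60 against -2.10 to -2.06 on the other controls. Tef was low on control replicate 4 (0.897), at 0.49 against 1.04 to 1.10 on the other controls, the array where Dbp was low too.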

How the results depend on the processing

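No clock gene passed under any of the 18 other settings or by single probes, and Clock, Npas2, Per2 and Cry2 kept their sign under all 18. Their size varied, at 0.059 (normexp) to 0.26 for Clock, 0.0685 (without TCDD replicate 2) to 0.23 (without control replicate 1) for Npas2, -0.30 to -0.0007 (without control replicate 3) for Per2 and 0.0868 (normexp) to 0.22 for Cry2. The sign of small changes turned. Per1 was at -0.0355 with quantile normalization, -0.0228 with median centring and -0.0395 with the deposited table, and Nr1d1 was at 0.0399 with normexp. Leaving out each array in turn gave -0.0599 to 0.12 for Arntl, -0.0566 to 0.11 for Per1, -0.0551 to 0.0736 for Per3, -0.0534 to 0.23 for Cry1, -0.24 to 0.23 for Nr1d1 and -0.20 to 0.21 for Dbp. The arm balance differed by 0.07 to 0.17 over the other scalings, filters and summaries and by 0.03 to 0.28 with each array left out, and by 0.79 with each gene divided by its SD, a change of unit. Over all genes, 14 calls became 1 with quantile normalization or the deposited table, 9 with median centring or single probes, 4 with an intensity trend, 0 with normexp (limma, 1077 higher and 846 lower at an unadjusted p under 0.05) and 0 to 11 with each array left out (0 without TCDD replicate 1 or control replicate 3). With the replicate block it was 0 (1071 and 443). Correlations of deviations between same-numbered samples lay between -0.10 and -0.02 over all genes. A correlation over all genes cannot show whether such samples were handled together, which the labels do not say. Of the 45 pairs 0 passed on deviations from group means or with quantile normalization. Ciart and Hlf, near background on the arrays where they are low, have the least certain values.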
